A study of Homo sapiens with 12 samples.

Results

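Tetraspanins are small membrane proteins that cross the plasma membrane or the membranes of endosomes several times and hold other membrane proteins in shared domains. The 10 tetraspanin genes described here are TSPAN7, TSPAN1, TSPAN3, TSPAN13, TSPAN14, CD9, CD63, CD81, CD82 and CD151. They were chosen by symbol from a table of 56832 genes, with their values in the comparison of RAC1 knockout and RAC1-positive cells already known, so those values are given as a description without a test. All 10 lay above the level filter used for testing, a mean of 1 or more in knockout or in RAC1-positive libraries on the TPM scale of transcript abundance (scaled by transcript length, with the same sum in every library), which 17367 genes passed.

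RNA was sequenced from DU145, an established human prostate cancer line, in 6 lines with 2 biological replicates each, 12 libraries in all. The RAC1-positive lines were the parental DU145 line and sgNTC clones 1 and 2, both made with the same non-targeting guide (sgNTC_1) and Cas9. The knockout lines were sgRAC1 clone 1, made with the guide sgRAC1_1, and sgRAC1 clones 2 and 3, made with the guide sgRAC1_2. Every line but the parental one was expanded from a single cell after transfection of guide and Cas9 complexes, so each sgNTC or sgRAC1 line is 1 clone, and the parental line is no clone. All lines grew in RPMI with 10% serum and no other agent is named in the labels, which give batch 1 for the first replicate and batch 2 for the second. RAC1 encodes a small GTPase of actin-based protrusion, and the title of the series places the work in signalling from EGFR through VAV2 to RAC1.

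In general, tetraspanins work through their partners. CD9 and CD81 bind the immunoglobulin-type proteins IGSF8 and PTGFRN, CD151 binds the laminin-binding integrins, and CD63 lies in late endosomes and lysosomes and reaches the cell surface or extracellular vesicles from there. CD82 was first described as a suppressor of metastasis in prostate cancer cells. TSPAN14 belongs to a subgroup that guides the maturation of the sheddase ADAM10. TSPAN7 is best known from neurons and from a form of X-linked intellectual disability, TSPAN1 from epithelial secretory tissue, and TSPAN13 from binding to voltage-gated calcium channels.

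The library of sgNTC clone 2 replicate 1 stood apart. It listed 13608 genes above 0 against 20470 to 25156 in the other libraries, and its median correlation with them was 0.872 against 0.936 to 0.954. Results that it moved most are given with and without it. RAC1 was at 36.5 to 59.2 TPM in the 6 knockout libraries and at 149 to 202 TPM in the 6 RAC1-positive libraries. This is a log2 difference of -1.89 (SE 0.14, limma with Benjamini-Hochberg adjustment, adjusted p = 0.0467), lower in 3 of 3 knockout lines. The adjusted p of RAC1 ran from 9.26e-60 in the authors' deposited table to 0.370 over 29 other settings and missed 0.05 in 19 of them, while the log2 difference ran from -2.04 to -1.79. RAC1 was the 1 gene called, 0.00576% of the genes tested. The call of that 1 gene was made on line means, whereas treating the libraries as units with the line as a random block gave 369 genes, and 320 with the replicate block added. The line means gave 21 genes without sgNTC clone 2 replicate 1, 3 without sgNTC clone 1 replicate 2 and 1 without sgRAC1 clone 2 replicate 1, RAC1 among them each time, and 0 when any 1 of the other 9 libraries was left out. Of the epithelial markers KRT8, KRT18, KRT19, EPCAM and CDH1 all 5 were detected, with sums of 372 to 752 TPM in knockout and 273 to 802 TPM in RAC1-positive libraries. Keratins make up most of that sum, and within the list CDH1, the epithelial cadherin gene, was at 7.04 to 21.0 TPM in knockout and 1.99 to 6.25 TPM in RAC1-positive libraries without overlap. KRT18 was at 56.4 to 268 TPM and 62.0 to 434 TPM. The part of these markers in the members' differences was not tested. The summed markers of leukocytes, endothelium and fibroblasts did not exceed 1.18 TPM in any library, with PTPRC, CD3E and VWF at 0 throughout. The neural sum was 2.63 to 6.83 TPM, led by SNAP25, and overlapped between genotypes.

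Positions are those of GENCODE release 29 on GRCh38. TSPAN7 is at chrX:38561370-38688920 and TSPAN1 at chr1:46175073-46185958, both on the plus strand. CD9 and CD63 share chromosome 12, at chr12:6199715-6238271 on the plus strand and chr12:55725323-55729707 on the minus strand. Chromosome 11 holds CD151 (chr11:832843-839831), CD81 (chr11:2376177-2397419) and CD82 (chr11:44564427-44620363), all on the plus strand. TSPAN13 (chr7:16753535-16784536, plus), TSPAN14 (chr10:80454166-80533123, plus) and TSPAN3 (chr15:77041404-77083984, minus) complete the set. RefSeq promoter entries on GRCh38.p14 were found for 6 of the 10, namely TSPAN1, TSPAN13, TSPAN14, CD9, CD63 and CD82, and not for TSPAN7, TSPAN3, CD81 and CD151. The windows shown run from 250 to 101 bases before a RefSeq start, 150 bases free of annotated exons of the gene, so those of CD9 and CD82 lie between exons of longer transcripts. They were picked after their letters were seen, to set the flank of TSPAN1, whose difference between genotypes was the second widest, beside those of an abundant member, CD9 (at one of its RefSeq starts), and a scarce one, CD82. They are chr1:46174837-46174986 for TSPAN1, chr12:6200150-6200299 for CD9 and chr11:44565413-44565562 for CD82, all plus strand. Capitals mark the GC box GGGCGG on either strand, the letters bound by SP1-type factors, and neighbouring boxes can touch or overlap.
TSPAN1: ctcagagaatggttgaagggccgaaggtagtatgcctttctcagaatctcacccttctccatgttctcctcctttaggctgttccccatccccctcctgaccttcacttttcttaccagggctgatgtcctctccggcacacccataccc
CD9: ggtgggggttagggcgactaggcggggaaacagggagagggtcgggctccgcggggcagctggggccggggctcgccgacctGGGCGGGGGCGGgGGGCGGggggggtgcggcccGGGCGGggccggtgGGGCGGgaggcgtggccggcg
CD82: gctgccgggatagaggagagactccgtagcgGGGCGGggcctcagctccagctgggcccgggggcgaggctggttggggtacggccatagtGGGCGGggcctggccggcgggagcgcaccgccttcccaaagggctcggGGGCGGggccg
The TSPAN1 window held 2 CpG dinucleotides at 53.3% GC and no GC box. That of CD9 held 19 CpG at 84.0% GC with 5 GC boxes, and that of CD82 held 15 CpG at 76.7% GC with 3. The start matters: other exon-free windows of CD9 at chr12:6200592-6200741 and chr12:6225889-6226038 held 16 CpG with 1 GC box, and 0 CpG at 44.7% GC with no GC box. The exon-free windows of CD63, the most abundant member, held 2 to 6 CpG at 58.7% to 61.3% GC with no GC box. Those of TSPAN14, a scarce member, held 2 CpG at 53.3% GC and 0 CpG at 38.7% GC, also with no GC box. The 3 windows printed therefore do not set TSPAN1 apart from abundant or scarce members. Over 35116 such RefSeq windows the medians were 5 CpG and 56.0% GC. A GC box was in 25.8% of all windows, a CCAAT box (CCAAT) in 18.9%, a TATA box (TATAAA) in 6.3% and an AP-1 site (TGANTCA) in 3.78%, each searched on both strands. None of these last 3 motifs was in the windows printed. A match or its absence describes these letters only.

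The widest differences were those of TSPAN7 and TSPAN1. TSPAN7 was at 14.2 and 16.8 TPM in sgRAC1 clone 1, 18.0 and 15.4 TPM in clone 2, and 23.5 and 22.3 TPM in clone 3 (replicates 1 and 2). In the RAC1-positive lines it was at 1.50 and 1.25 TPM in the parental line, 0.97 and 1.59 TPM in sgNTC clone 1, and listed at 0 and at 0.50 TPM in sgNTC clone 2. Every knockout library lay far above every RAC1-positive library, and the lowest values were both in sgNTC clone 2. Knockout lines averaged 18.4 ± 3.97 TPM against 0.968 ± 0.62 TPM (SD, n = 3 lines each). On the log2(TPM + 1) scale, which understates changes near 1 TPM, the difference was 3.35 (SE 0.30). The ratio of the means was 19.0, and 17.5 without sgNTC clone 2 replicate 1. Per library, the authors' deposited table gives TSPAN7 a mean signal of 51.8 normalized counts, which shared out by TPM comes to about 98.5 in knockout and 5.19 in RAC1-positive libraries. The level in RAC1-positive cells thus rests on few reads. The log2 fold change in the authors' deposited table was 3.86. In bulk RNA, more cells with the transcript and more transcript per cell cannot be told apart, for TSPAN7 and for the other members.

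TSPAN1 was at 16.0 and 21.7 TPM in sgRAC1 clone 1, 18.9 and 22.6 TPM in clone 2, and 35.5 and 33.4 TPM in clone 3. In the parental line TSPAN1 was at 7.77 and 7.10 TPM, in sgNTC clone 1 at 4.07 and 4.82 TPM, and in sgNTC clone 2 it was listed at 0 and at 3.31 TPM. The groups did not overlap, clone 3 stood above the other knockout clones, and the RAC1-positive lines descended from the parental line to sgNTC clone 2. Line means were 24.7 ± 8.53 TPM in knockout and 4.51 ± 2.89 TPM in RAC1-positive lines, a log2 difference of 2.44 (SE 0.50). Without sgNTC clone 2 replicate 1 it was 2.09, and the ratio of means went from 5.47 to 4.87.

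**Figure D1:**
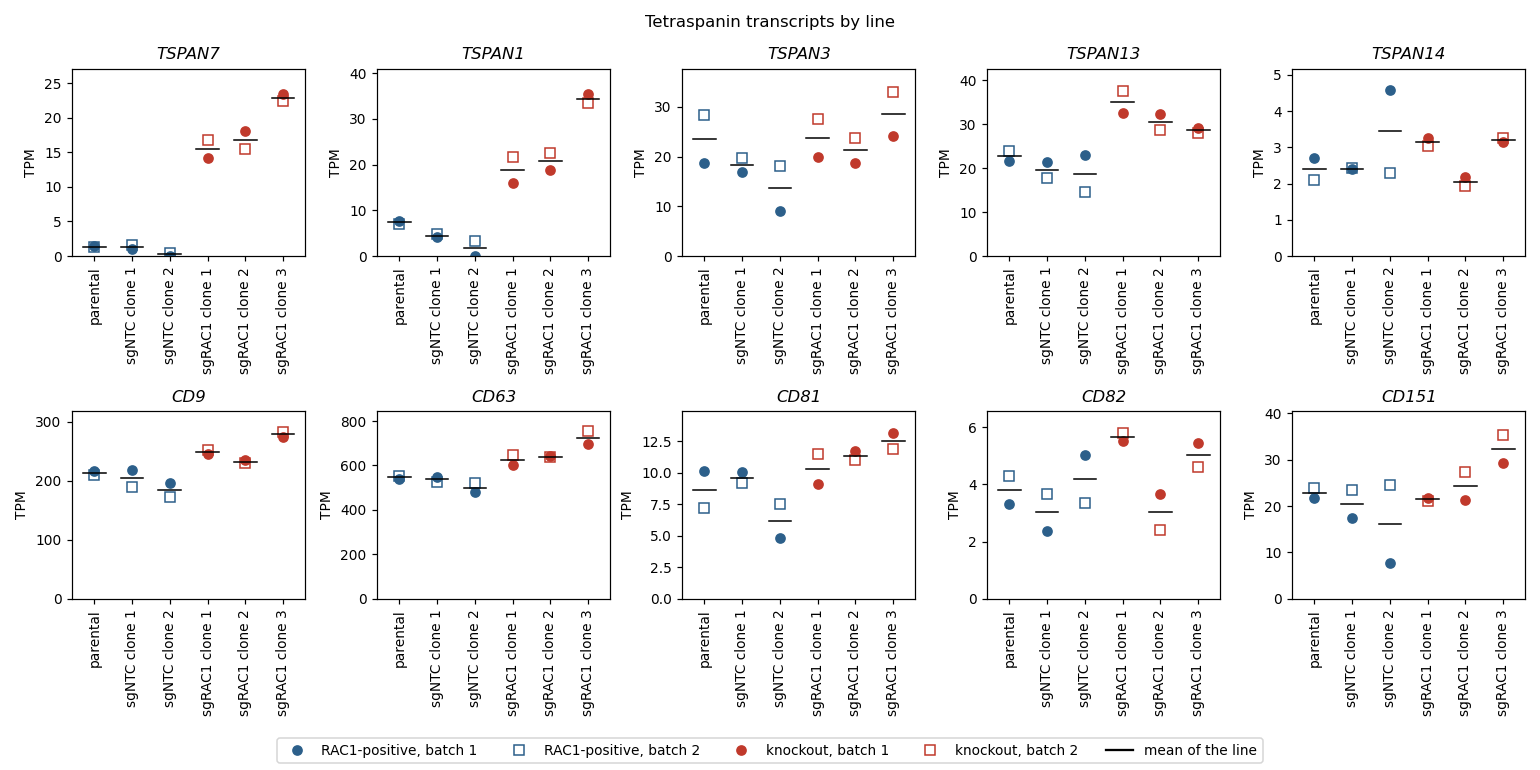
TPM of each of the 10 tetraspanin genes (vertical axes, linear from 0, one scale per gene) in the 6 lines; circles are batch 1, squares batch 2, blue RAC1-positive, red knockout, and bars the mean of each line. The knockout libraries of TSPAN7 sit at 14.2 to 23.5 TPM above RAC1-positive libraries at 0 to 1.59 TPM, whereas CD82 and TSPAN14 overlap between genotypes.

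TSPAN13, CD9 and CD63 differed by far less, but without overlap between libraries. TSPAN13 ranged from 28.0 to 37.7 TPM in knockout libraries with a median of 30.8 TPM, and from 14.5 to 23.8 TPM in RAC1-positive libraries with a median of 21.5 TPM. Its log2 difference was 0.61 (SE 0.13), and here sgRAC1 clone 1 and not clone 3 was the highest line. CD9, the classical surface tetraspanin of epithelial cells, was at 246 and 253, 235 and 230, and 274 and 284 TPM in sgRAC1 clones 1, 2 and 3. In the parental line and sgNTC clones 1 and 2 it was at 216 and 210, 218 and 190, and 196 and 173 TPM. The lowest knockout library of CD9, in clone 2, was above the highest RAC1-positive one, in sgNTC clone 1. The log2 difference of CD9 was 0.34 (SE 0.10), with line means of 254 ± 23.6 and 201 ± 14.5 TPM. CD63, the late endosomal and vesicle tetraspanin, was at 602 and 646, 641 and 640, and 695 and 754 TPM in sgRAC1 clones 1, 2 and 3. It was at 538 and 554, 547 and 527, and 480 and 519 TPM in the parental line and sgNTC clones 1 and 2. CD63 was the most abundant of the 10 in each library, and its groups were apart as those of CD9 were. Line means were 663 ± 53.9 and 528 ± 24.8 TPM, a log2 difference of 0.33 (SE 0.08).

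For CD81, the close relative of CD9, the knockout libraries ran from 9.13 to 13.1 TPM (median 11.6 TPM) and the RAC1-positive libraries from 4.84 to 10.1 TPM (median 8.36 TPM). Single libraries overlapped, yet all 3 knockout line means lay above the RAC1-positive ones, with a log2 difference of 0.46 (SE 0.19). TSPAN3, a widely expressed member, ranged from 18.8 to 33.1 TPM (median 23.9 TPM) in knockout and from 9.02 to 28.4 TPM (median 18.4 TPM) in RAC1-positive libraries. CD151 ranged from 21.2 to 35.4 TPM (median 24.5 TPM) in knockout and from 7.79 to 24.5 TPM (median 22.6 TPM) in RAC1-positive libraries. Both overlapped between genotypes in lines and libraries. Their log2 differences were 0.43 (SE 0.22) for TSPAN3 and 0.44 (SE 0.22) for CD151, and without sgNTC clone 2 replicate 1 these were 0.28 and 0.18. CD82 was at 2.40 to 5.80 TPM (median 5.03 TPM) in knockout and 2.38 to 5.05 TPM (median 3.50 TPM) in RAC1-positive libraries, a log2 difference of 0.24 (SE 0.24). TSPAN14 was at 1.93 to 3.27 TPM (median 3.09 TPM) in knockout and 2.09 to 4.57 TPM (median 2.40 TPM) in RAC1-positive libraries, a log2 difference of 0.04 (SE 0.22). The genotypes overlapped for both genes, and the sign for TSPAN14 turned in 7 of 28 other settings, to -0.11 in batch 1 alone. Without sgNTC clone 2 replicate 1 the log2 difference was 0.16 for TSPAN14, 0.32 for CD82 and 0.37 for CD81.

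Counted over the members, 6 of 10 had the lowest knockout line mean above the highest RAC1-positive one (TSPAN7, TSPAN1, TSPAN13, CD9, CD63 and CD81), beside 12% of all genes tested, and none had the reverse, beside 8.52%. The same counts without sgNTC clone 2 replicate 1 were 6 and 0, beside 2381 and 1769 of 17367 genes. All 6 knockout libraries were above all 6 RAC1-positive libraries for 5 of 10, beside 2.14% of all genes. The calls in the authors' deposited table were 5 of 10 higher and none lower, beside 5.68% and 4.06% of the 15140 genes with an adjusted p there. The median log2 difference was 0.43 over the members and 0.02 over all genes, and 0.34 and 0.006 without sgNTC clone 2 replicate 1. With all libraries, all 10 members were positive as against 53.3% of all genes. The members were picked with this contrast in view, so these counts carry no weight as evidence.

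TPM is scaled by length, and on that scale levels of different genes are set side by side here. Differences between genes in amplification and in exchanged reads were not tested, so the shares below are shares of TPM only. CD63 made up 62.6% ± 1.13 of the members' summed TPM in knockout lines and 65.4% ± 1.31 in RAC1-positive lines, and CD9 23.9% ± 0.80 and 24.9% ± 0.15 (SD, n = 3 lines). TSPAN7 made up 1.72% ± 0.22 and 0.117% ± 0.073. The sum of all 10 was 1060 ± 96.0 TPM in knockout and 807 ± 53.2 TPM in RAC1-positive lines, and that of the 8 members other than CD63 and CD9 was 144 ± 20.7 and 78.7 ± 14.3 TPM. The 10 genes held 88.6% to 91.4% of the TPM of all 33 tetraspanin genes in each library.

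Of the other 23 tetraspanin genes, 11 lay above the level filter and 0 were called (limma, Benjamini-Hochberg), with 2 at an unadjusted p under 0.05. Over all genes 2256 of 17367 had such a p in the genotype comparison, which is the background for the same count in each list. Knockout lines were all above in 4 of the 11, or 36.4%, beside 12% of all genes, and in 3 without sgNTC clone 2 replicate 1, beside 2381 of 17367 genes. Of these 4, TSPAN8 and UPK1A passed the level filter only through the knockout lines, where they are higher, so the share is no support for a difference. The median log2 difference was 0.34, and 0.19 without that library. TSPAN8, a tetraspanin of digestive and tumour epithelium, was at 2.25 ± 1.08 TPM in knockout and 0.315 ± 0.36 TPM in RAC1-positive lines, a log2 difference of 1.13 (SE 0.31, limma adjusted p = 0.233). UPK1A, a uroplakin of bladder epithelium, had 0.83 (SE 0.33), ROM1, a photoreceptor disc protein, 0.42 (SE 0.23), and TSPAN12, a receptor partner in Norrin signalling, 0.34 (SE 0.17). The line means of UPK1A and ROM1 were apart with all libraries and overlapped without sgNTC clone 2 replicate 1. The authors' deposited table called 2 of 14 higher, TSPAN8 and TSPAN31, and 0 lower, beside 5.68% and 4.06% of all its genes. TSPAN31 lay below the filter, at 0.848 and 0.267 TPM, and is named here after its value was seen. TSPAN32 was at 0 in every library.

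**Figure D2:**
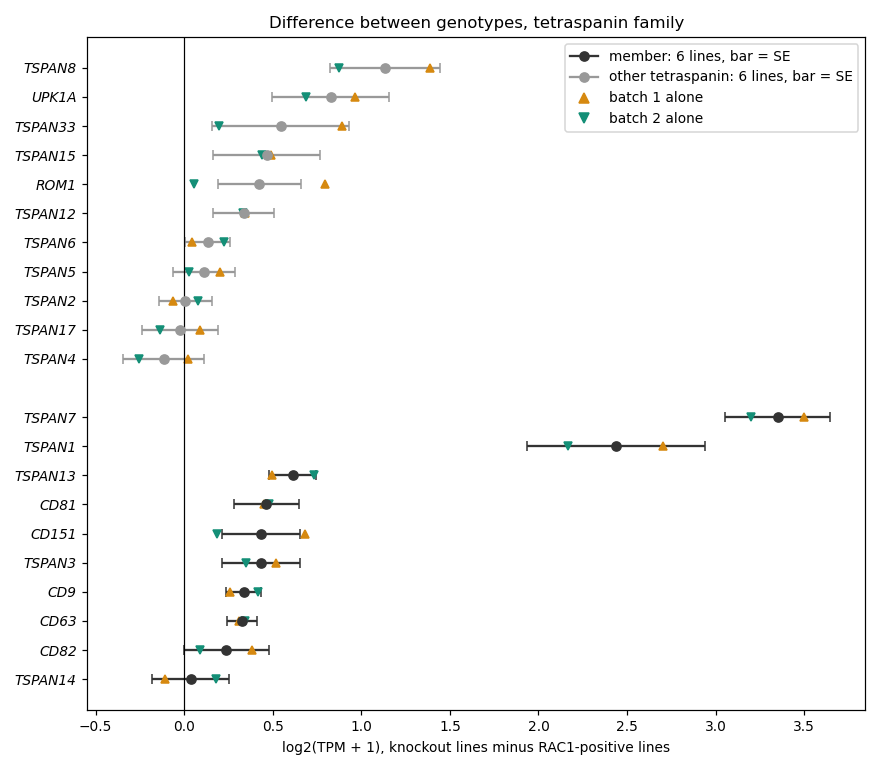
Log2(TPM + 1) difference of knockout minus RAC1-positive lines (horizontal axis) for the 10 members in black and the 11 other tetraspanins above 1 TPM in grey; points are the 6-line estimates with SE bars, triangles batch 1 alone and batch 2 alone. TSPAN7 at 3.35 and TSPAN1 at 2.44 lie far to the right of the rest, and CD151 moves from 0.68 in batch 1 to 0.19 in batch 2.

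Within each batch, 3 knockout lines were set against 3 RAC1-positive lines. TSPAN7 differed by 3.50 in batch 1 and 3.20 in batch 2 on the log2 scale, TSPAN1 by 2.71 and 2.17, and TSPAN13 by 0.49 and 0.73. CD9 gave 0.26 and 0.41, CD63 0.31 and 0.35, and CD81 0.45 and 0.48. CD151 gave 0.68 and 0.19, TSPAN3 0.52 and 0.35, CD82 0.39 and 0.09, and TSPAN14 -0.11 and 0.18. Only TSPAN14 changed sign between batches. The library that stood apart belongs to batch 1, and the change between batches was not tested.

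Contrasts between lines of one genotype, and between batches, are separate from the genotype comparison and were tested with limma over the 17367 genes, although earlier results of these lines were known when the members were chosen. The error in their p-values is that between replicate libraries of 1 line, not between clones. Between the guides, sgRAC1 clone 1 minus the mean of clones 2 and 3, 15 genes were called (0.0864%), and 8 with the replicate block. The count was 24 without sgNTC clone 2 replicate 1, as without replicate 2 of that clone, 7 and 8 without sgRAC1 clone 2 replicates 1 and 2, and 9 without either replicate of sgRAC1 clone 1 or without sgRAC1 clone 3 replicate 2. No member was among the 15, and 0 members reached an unadjusted p under 0.05, as did 685 of all genes. Only TSPAN13 (0.24), TSPAN14 (0.21) and CD82 (0.44) were positive, with SE of 0.19, 0.25 and 0.25, beside 47.6% of all genes positive. CD63 was at -0.13 (SE 0.09), TSPAN7 at -0.32 (SE 0.23) and TSPAN1 at -0.50 (SE 0.47). CD9 hardly differed between the guides, at -0.03 (SE 0.10).

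Clones 2 and 3 share a guide, and between them 0 genes were called (0%), with 577 genes and 0 members at an unadjusted p under 0.05. Leaving out sgRAC1 clone 2 replicate 2 gave 7 genes, sgNTC clone 2 replicate 1 gave 2, and sgRAC1 clone 3 replicate 2 gave 1. Of the 10 members 9 were higher in clone 3, beside 51.1% of all genes. The differences were 0.26 for CD9 (SE 0.12), 0.18 for CD63 (SE 0.10), 0.43 for TSPAN7 (SE 0.27), 0.71 for TSPAN1 (SE 0.55) and 0.59 for CD82 (SE 0.29). TSPAN13 was the exception at -0.09 (SE 0.22). No limma adjusted p was below 1 for any member in either contrast of knockout clones.

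The sgNTC clones against the parental line gave 1 call (0.00576%), the kynureninase gene KYNU, at -2.31 (SE 0.17, limma adjusted p = 0.00777, range over 19 other settings 0.00473 to 0.0624). This call ended when any parental or knockout library was left out. A member was not called, 1 member and 680 genes had an unadjusted p under 0.05, and that member was TSPAN1, at -1.33 (SE 0.47, limma adjusted p = 1). Of the 10, 9 were lower in the sgNTC clones and TSPAN14 alone was higher, at 0.17 (SE 0.25), while 41.8% of all genes were higher. TSPAN7 was at -0.51 (SE 0.23) and CD9 at -0.14 (SE 0.10). Between sgNTC clones 2 and 1, 0 genes were called (0%), with 1322 genes and 3 members at an unadjusted p under 0.05. These members were TSPAN7 at -0.88 (SE 0.27), TSPAN1 at -1.39 (SE 0.55) and CD81 at -0.58 (SE 0.25), each with a limma adjusted p of 0.627. TSPAN7, at 0.968 TPM over the RAC1-positive lines, passed the level filter only through the knockout lines, so its values within RAC1-positive lines lie below that filter. All of these rest on sgNTC clone 2. Without its replicate 2, so that the library standing apart remained as the lone one of the clone and was assumed to vary like the others, calls against sgNTC clone 1 went to 2351 and calls against parental to 193. In that setting TSPAN1 was called against sgNTC clone 1 at -2.44 (limma adjusted p = 0.00165), TSPAN7 at -1.18 (adjusted p = 0.0260, from a library where it was listed at 0) and CD151 at -1.27 (adjusted p = 0.0185). TSPAN1 was then also called against the parental line, at -1.85 (limma adjusted p = 0.00691). Without replicate 1 the same 2 contrasts had 24 calls and 1 call, and no member among them. Over 95 alternatives of the 5 contrasts these 2 were the only ones that called a member.

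Batch 2 against batch 1, paired by line, called 2 genes (0.0115%), HERPUD1 at 1.19 (SE 0.10) and MINPP1 at 1.06 (SE 0.09), each with a limma adjusted p of 0.0355, higher in batch 2. Both calls ended in each of the 12 fits that left out a library. No member was called, and 1 member and 1421 genes had an unadjusted p under 0.05. TSPAN3 was that member, higher in batch 2 in 6 of 6 lines by 0.49 (SE 0.12, limma adjusted p = 0.253). By line its log2 difference ran from 0.22 in sgNTC clone 1 to 0.94 in sgNTC clone 2. CD151 was higher in 5 of 6 lines by 0.44 (SE 0.20), with 1.54 in sgNTC clone 2, and TSPAN1 by 0.46 (SE 0.29) with 2.11 in that clone. CD9 and CD63 moved by -0.06 (SE 0.07) and 0.05 (SE 0.06).

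**Figure D3:**
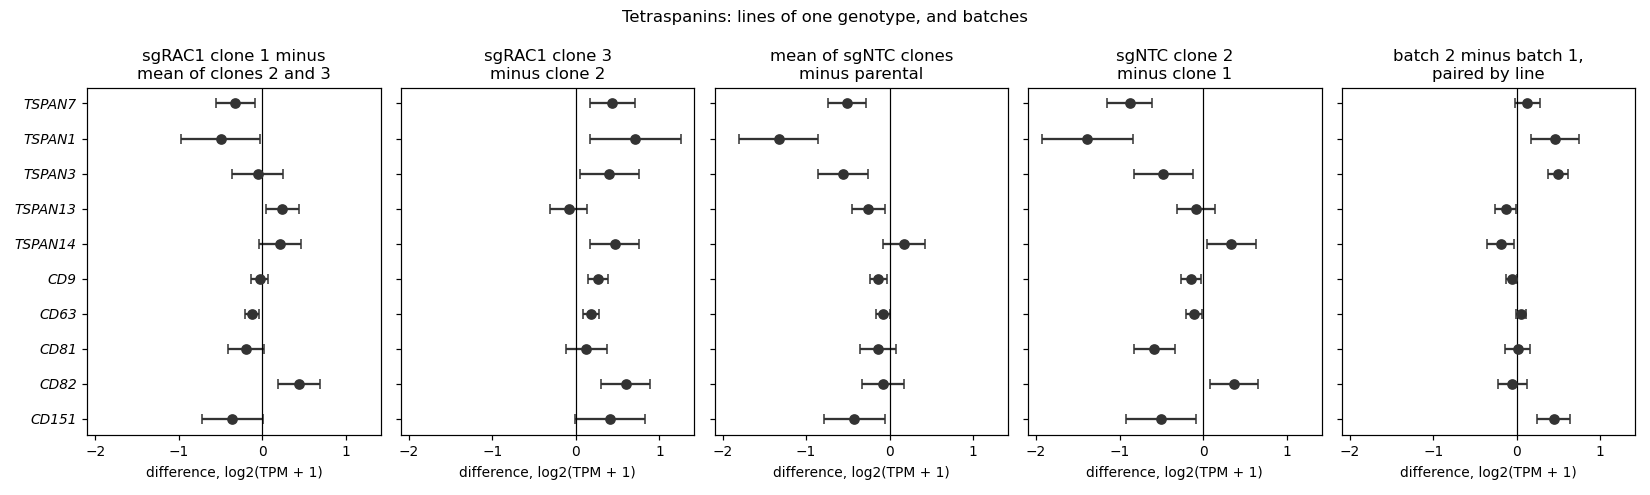
Differences of log2(TPM + 1) with SE bars (horizontal axes) for the 10 members in 4 contrasts between lines of one genotype and in batch 2 minus batch 1. In sgRAC1 clone 3 minus clone 2, 9 of 10 points are right of 0, beside 51.1% of all genes above 0. In the sgNTC clones minus parental 9 of 10 are left of 0, while 41.8% of all genes were above 0. No member passed the threshold in any panel.

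By line, 7 of 10 members were highest in sgRAC1 clone 3 and 8 were lowest in sgNTC clone 2. These counts were not taken over all genes, so they cannot be read as a trait of the members. For TSPAN7 the order of log2 line means was sgRAC1 clone 3, 2 and 1, then the parental line, sgNTC clone 1 and sgNTC clone 2. TSPAN1 had the same order. Of the steps in this order, sgRAC1 clone 3 against clone 2 and sgNTC clone 2 against clone 1 were tested and did not pass the threshold for either gene, and the other steps were not tested one by one. In 6 of 10 members the lowest of the 12 libraries was sgNTC clone 2 replicate 1, also a count not taken over all genes. That library listed the fewest genes above 0, and its part in the order of lines was not tested.

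The genes most like TSPAN7 over the 12 libraries were taken as those with the smallest root mean square difference of log2(TPM + 1), each gene centred on its own mean. TSPAN1 came first at 0.650, followed by SDR16C5, a short-chain retinol dehydrogenase, at 0.651, the interferon-induced gene IFIT2 at 0.686, the defensin gene DEFB1 at 0.697 and the glutathione peroxidase gene GPX2 at 0.709. The median over all genes was 1.75, close to the 1.72 that a gene flat over the libraries would have. SDR16C5 was at 7.99 ± 4.60 TPM in knockout and 0.573 ± 0.94 TPM in RAC1-positive lines, and DEFB1 at 9.58 ± 5.63 and 0.150 ± 0.26 TPM. For CD9 the nearest were BRK1, a WAVE complex subunit, at 0.0753, MCC at 0.0757 and the coatomer gene COPA at 0.0759, against a median of 0.416. A flat gene would be at 0.203 from CD9, well below that median. BRK1 was at 581 ± 36.8 and 487 ± 24.0 TPM. All of these 8 genes were also higher in knockout lines, so the 12 points share the genotype contrast, and the measure is a description. SDR16C5, DEFB1, GPX2 and MCC, like TSPAN7 itself, passed the level filter only through the knockout lines, where they are higher.

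The partners of tetraspanins were taken as 16 genes, 15 of them above the filter. This list and those of vesicle and lysosome genes were chosen with earlier results of these data known. Their shares beside all genes therefore carry no weight as evidence. None was called by limma, 6 had an unadjusted p under 0.05 (2256 of 17367 over all genes), and the authors' deposited table called 6 of 16 higher and 0 lower, beside 5.68% and 4.06% of all its genes. Knockout lines were all above in 8 of 15 (53.3%, beside 12% of all genes), with a median log2 difference of 0.32. Without sgNTC clone 2 replicate 1 they were all above in 10, beside 2381 of 17367 genes, with a median of 0.39. Of the 8, the integrin gene ITGB4 passed the filter only through the knockout lines. EPCAM, an adhesion molecule found in complexes with tetraspanins and also one of the epithelial markers, was at 43.8 ± 6.72 TPM in knockout and 24.2 ± 2.10 TPM in RAC1-positive lines, 0.81 on the log2 scale (SE 0.15, limma adjusted p = 0.150). The collagen-binding integrin gene ITGA2 was at 14.9 ± 3.30 and 5.72 ± 2.21 TPM, 1.23 (SE 0.27, limma adjusted p = 0.190). CD44, the hyaluronan receptor, was at 87.2 ± 4.61 and 64.4 ± 5.19 TPM. PTGFRN, which binds CD9 and CD81, was at 13.9 ± 1.33 and 9.80 ± 0.73 TPM. EPCAM passed the threshold with libraries as units and the line as a random block, with and without the replicate block, and ITGA2 did so without the replicate block. ADAM10, the client of TSPAN14, was at 49.8 ± 2.16 and 42.9 ± 15.9 TPM, a log2 difference of 0.29 (SE 0.22). Its line means overlapped, and ADAM10 was at 78.4 TPM in sgNTC clone 2 replicate 1. Without that library the RAC1-positive mean was 37.1 TPM, the log2 difference 0.43, and all knockout lines lay above.

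Of 19 genes of extracellular vesicles and ESCRT sorting, 18 were above the filter and none was called by limma, with 4 at an unadjusted p under 0.05 (2256 of 17367 over all genes). The authors' deposited table called 4 of 18 higher and 0 lower, beside 5.68% and 4.06%. Knockout lines were all above in 6 (33.3%, beside 12% of all genes) and all below in 1 (beside 8.52%), with a median of 0.16. Without sgNTC clone 2 replicate 1 they were above in 9 and below in 1, beside 2381 and 1769 of 17367 genes, with a median of 0.20. SDCBP, the gene of syntenin that links syndecans and CD63 to vesicle formation, was at 531 ± 54.0 TPM in knockout and 344 ± 37.7 TPM in RAC1-positive lines, 0.64 on the log2 scale (SE 0.11, limma adjusted p = 0.143). RAB27A, a GTPase that docks late endosomes for release, was at 19.1 ± 3.92 and 9.73 ± 1.07 TPM, 0.89 (SE 0.18, limma adjusted p = 0.156). Its relative RAB27B was at 12.6 ± 5.97 and 4.87 ± 1.49 TPM, and SDC1, the syndecan, at 30.4 ± 5.50 and 19.0 ± 2.02 TPM. SDCBP, RAB27A and SDC1 passed the threshold with libraries as units and the line as a random block, with and without the replicate block, and RAB27B without it. The 1 gene with all lines below was HGS, an ESCRT subunit, at 2.15 ± 0.44 and 3.57 ± 1.20 TPM.

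Of 13 lysosome genes, 12 were above the filter, none was called by limma and 5 had an unadjusted p under 0.05 (2256 of 17367 over all genes). Knockout lines were all above in 8 (66.7%, beside 12% of all genes) and all below in none (beside 8.52%), with a median of 0.25. Without sgNTC clone 2 replicate 1 they were above in 8 and below in 0, beside 2381 and 1769 of 17367 genes, with a median of 0.26. The authors' deposited table called 4 of 12 higher and 0 lower, beside 5.68% and 4.06%. CTSB, the cysteine protease cathepsin B, was at 102 ± 28.5 TPM in knockout and 54.3 ± 10.2 TPM in RAC1-positive lines, 0.86 (SE 0.22, limma adjusted p = 0.219). It passed the threshold with libraries as units and the line as a random block, with and without the replicate block. CTSL, cathepsin L, was at 708 ± 65.0 and 595 ± 26.4 TPM. ATP6V0D1, a proton pump subunit, was at 27.1 ± 3.02 and 20.6 ± 1.66 TPM, and HEXA, a hexosaminidase chain, at 8.81 ± 1.09 and 6.21 ± 1.05 TPM.

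The genes that flank TSPAN7 on the X chromosome had log2 differences of at most 0.61, against 3.35 for TSPAN7. Of 15 genes 11 were above the filter, 5 were positive (beside 53.3% of all genes), 0 were called by limma and 1 had an unadjusted p under 0.05. The median log2 difference was -0.04, which turned to 0.05 without sgNTC clone 2 replicate 1. The authors' deposited table called 1 of 11 higher and 0 lower, beside 5.68% and 4.06% of all its genes. Knockout lines were all above for 2 (MED14 and SRPX, 18.2%, beside 12% of all genes) and all below for 2 (MID1IP1 and XK, beside 8.52% of all genes). Without sgNTC clone 2 replicate 1 these counts were also 2 and 2, with ATP6AP2 in place of XK, beside 2381 and 1769 of 17367 genes. MID1IP1, whose start lies 240.1 kb beyond that of TSPAN7, was at 1.34 ± 0.19 TPM in knockout and 1.96 ± 0.29 TPM in RAC1-positive lines, -0.34 on the log2 scale (SE 0.20). On the other side the start of OTC lies at -208.8 kb from that of TSPAN7, and OTC was listed at 0 in all knockout libraries and at up to 0.125 TPM in RAC1-positive ones. MED14, a Mediator subunit, was at 7.71 ± 0.34 and 4.83 ± 1.55 TPM, 0.61 (SE 0.20, limma adjusted p = 0.285), and SRPX, which passed the filter only through the knockout lines, at 1.87 ± 0.24 and 0.963 ± 0.62 TPM. ATP6AP2 was at 29.3 ± 3.40 and 39.2 ± 14.8 TPM.

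**Figure D4:**
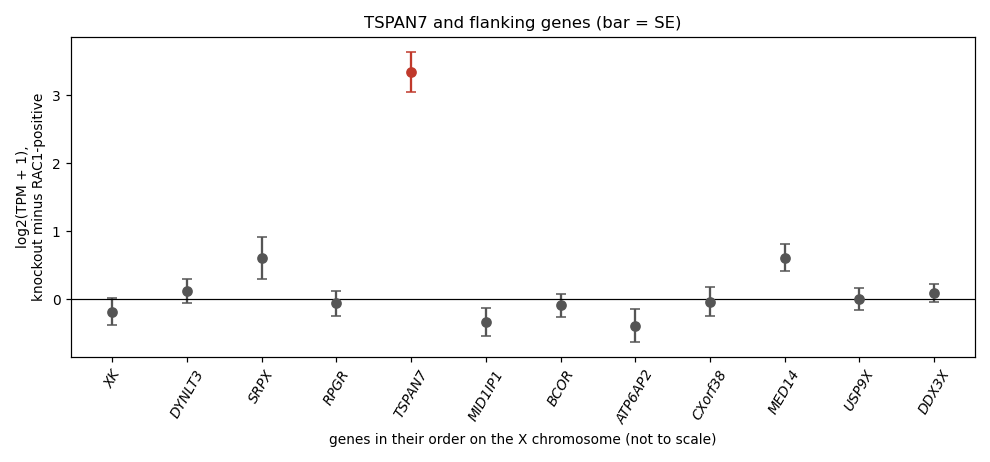
Log2(TPM + 1) difference of knockout minus RAC1-positive lines with SE bars (vertical axis) for TSPAN7 in red and the 11 flanking X chromosome genes above 1 TPM in grey, in their order on the chromosome. TSPAN7 stands at 3.35, and the flanking genes lie between -0.39 for ATP6AP2 and 0.61 for MED14.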

How the data were processed

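The members and all gene lists were chosen with earlier results of these data known. RNA (160 ng per library) was reverse transcribed with SMARTScribe, amplified and tagmented, according to the labels' protocols. Named in the submitters' processing notes are bcl2fastq, STAR 2.6.1d, DESeq2 and the build GRCh38. Counter, annotation and strand setting were not given in the sources used here, and genes that overlap or resemble each other may therefore have exchanged reads. The authors deposited values per library, and their unit, TPM, was inferred from their fixed sum and their relation to transcript length. The depth of single libraries is therefore unknown and no counting interval can be given. Per the file headers, the authors also deposited a mean signal (normalized counts), the log2 fold change and its SE, a Wald score, the p-value and the adjusted p-value. An adjusted p-value was given for 15140 genes, and shares of the authors' deposited table are over these. The set-up of that comparison was not given in the sources used here.

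From TPM, log2(TPM + 1) was averaged over the 2 libraries of a line. Then 3 knockout lines were compared with 3 RAC1-positive lines in limma 3.58.1 (R 4.3.3), with a variance trend on mean expression and a Benjamini-Hochberg threshold of 0.05. Genes with a mean of 1 TPM or more in one of the genotypes entered. Other contrasts used 12 libraries with a mean per line. Scripts were tested on simulated data. Named were all members, RAC1, up to 4 genes per list by smallest unadjusted p, the 5 genes most like TSPAN7 and the 3 most like CD9. Other tetraspanins and flanking genes above 1 TPM could be named freely. KYNU, HERPUD1, MINPP1, HGS, ADAM10, TSPAN31 and OTC were added after their values were seen. Per the labels, the replicate number is the batch, which pairs libraries across lines. Same-batch deviations of 15 pairs of lines correlated at -0.126 to 0.296 (median 0.0261), with 2 pairs over 0.1. Alternatives were the pseudocount, the filter, the scaling, the unit of replication, the replicate block, each batch alone, and each line or library left out. The result of 1 list of markers is not reported here.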

Additional observations from a re-analysis of the deposited data

Results flagged for a closer look

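In each genotype the highest and lowest of the 6 libraries were compared with the rest for RAC1 and the 10 members (22 groups). The measure was the gap to the nearest library over the whole range, both on the log2(TPM + 1) scale (Dixon's test at the 95% level). Levels below are printed in TPM, and gaps on the TPM scale were not tested. Chance flags about 1 in 20 groups. Among RAC1-positive libraries, 3 genes exceeded it, each through sgNTC clone 2 replicate 1, the library that listed the fewest genes above 0. TSPAN1 was lowest there, listed at 0 against 3.31 TPM in the next library, a gap of 0.673 of the range. CD151 was lowest there at 7.79 TPM against 17.4 TPM, a gap of 0.695. TSPAN14 was highest there at 4.57 TPM against 2.71 TPM, a gap of 0.692.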

How the results depend on the processing

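The log2 differences of the members between genotypes kept their sign in 28 or 29 other settings each, except TSPAN14. TSPAN7 ran from 1.96 at a pseudocount of 5 to 4.53 at 0.1, with 3.86 in the authors' deposited table, and TSPAN1 from 1.66 to 3.13. Both are low genes in RAC1-positive cells, where the pseudocount is of the size of the value. CD9 ran from 0.26 to 0.41, CD63 from 0.26 to 0.37, TSPAN13 from 0.49 to 0.73, and CD151 from 0.18 to 0.69. The all-gene median shifted by -0.004 under median-of-ratios scaling and by 0.016 under upper quartile scaling, and all 10 members stayed positive. With 3 lines per genotype, 1 gene called and unknown depth, all of these differences are uncertain. Those of CD82 (0.24, SE 0.24) and TSPAN14 (0.04, SE 0.22) did not exceed their SE. The widest SE were those of TSPAN1 (0.50) and TSPAN7 (0.30).

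Counts of called genes moved more. For the genotype comparison (1 gene), a pseudocount of 0.1, no filter, median-of-ratios scaling, upper quartile scaling and batch 1 alone each gave 0. A pseudocount of 5 gave 2, a filter of 5 TPM 3 and batch 2 alone 33. With libraries as units and the line as a random block the count was 369, and 320 with the replicate block. The authors' deposited table has 1474. Leaving out a line gave 0, except 1 without sgRAC1 clone 2, and leaving out a library 0 to 21. For the guides (15 genes), pseudocounts of 0.1 and 5 gave 2 and 28, no filter 67, a filter of 5 TPM 2, the replicate block 8, and leaving out a library 7 to 24. For clone 3 against clone 2 (0 genes), a pseudocount of 5 gave 7, no filter 23, and leaving out a library 0 to 7. For the sgNTC clones against parental (1 gene), a pseudocount of 0.1 gave 2, no filter 3, and leaving out a library 0 to 193. For sgNTC clone 2 against clone 1 (0 genes), a pseudocount of 0.1 and no filter gave 11 each, a filter of 5 TPM 2, median-of-ratios scaling 1, and leaving out a library 0 to 2351. For the batches (2 genes), a filter of 5 TPM gave 22, median-of-ratios scaling and a fit not paired by line 0, and leaving out a library 0. The replicate block changed no other count of calls. Of 20 named list genes, 7 passed 0.05 in limma in 1 or 2 settings, all with libraries as units. The authors' deposited table, not counted there, gave 13 of the 19 with a value an adjusted p under 0.05, including 6 that passed in no limma setting. Where the setting itself does not change the number of genes or samples, the cause was not tested.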
